A study of Homo sapiens with 18 samples.

Results

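The comparison described here sets PANC-1 cells treated with 800 nM C16 directly against PANC-1 cells treated with 400 nM C16. Every gene whose normalized counts averaged 10 or more over the 9 libraries of the C16 table was taken, which gave 9963 of the 26485 genes listed. PANC-1 is an established epithelial cell line from a human pancreatic ductal carcinoma, and each group stands for this line alone. The groups were DMSO, the solvent control, C16 at 400 nM and C16 at 800 nM, each exposed for 72 h and each with 3 libraries, among 18 libraries in the series. The 400 nM dose is given by the sample labels, whereas the methods name 800 nM for the RNA sequencing. DMSO libraries were used only to place genes on the dose curve, by a first step from DMSO to 400 nM and a second step from 400 to 800 nM.

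C16 is a small molecule that blocks the kinase activity of PKR, the protein encoded by EIF2AK2. PKR binds double-stranded RNA and phosphorylates the translation factor eIF2 alpha, as do the kinases PERK, GCN2 and HRI under other stresses. Phosphorylated eIF2 alpha lowers general translation and raises that of the transcription factor ATF4, which drives genes for amino acid synthesis, amino acid transport and redox balance, a program called the integrated stress response. PKR also takes part in the defence against viruses, beside the interferon-stimulated genes.

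Reads on genes numbered 977167 to 1050520 in the 400 nM libraries, 894145 to 1150862 in the 800 nM libraries and 1148151 to 1474308 in the DMSO libraries, so genes with few reads are imprecise. DMSO replicate 3 stood further from its partners than any other library, with chi-square values of 1.63 and 1.37 per degree of freedom against 1.07 to 1.16 for the other pairs within a group. Of 9 markers fixed for this carcinoma line 8 were tested, and KRT7 was under the filter in spite of the epithelial label. Their summed level was 10324.5 to 10727.6 normalized counts with DMSO, 8524.1 to 9186.1 with 400 nM and 7221.9 to 7935.7 with 800 nM. The members did not move together. The 800 nM libraries of KRT8, KRT19 and VIM, which have high counts, lay below all DMSO libraries. Those of KRT18, CDH1 and CDH2 overlapped DMSO, and those of EPCAM and KRT80 lay above it. In bulk RNA, fewer cells of a kind and less RNA per cell cannot be told apart. Of 9 leukocyte markers 4 were at 0 in all 9 libraries, PTPRC, CD3E and MS4A1 among them, and 1 was tested, CD68, a lysosomal protein of macrophages that other cells also make. CD68 carried most of a summed level of 57.1 to 64.1 with DMSO, 143.6 to 177.6 with 400 nM and 109.9 to 126.7 with 800 nM. Of 9 fibroblast markers COL1A2, DCN and PDGFRA were at 0, and COL1A1 and COL3A1 were tested (summed level of all 9, 150.6 to 187.3, 121.1 to 184.0 and 83.0 to 117.0). At 0 were also 5 of 6 endothelial and 7 of 8 acinar and islet markers. The part of such cells in the results was not tested. The sources do not say whether the replicates were separate cultures, so SDs and p-values describe the spread between libraries, which may be technical.

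Raising C16 from 400 to 800 nM lowered more genes than it raised. With a Benjamini-Hochberg adjusted limma p under 0.05 and a change over 1.5-fold, the thresholds of the study, 113 genes rose (1.13% of those tested) and 394 fell (3.95%). The median log2 difference of the genes that rose was 0.68 and that of the genes that fell was -0.81. Only 7 rises but 109 falls were larger than 2-fold. The 3 libraries at 800 nM lay beyond all 3 libraries at 400 nM for 106 of the rises and 367 of the falls. Such separation in either direction was seen in 30.4% of all genes tested. Genes called on these same libraries lean to separation, so these counts describe the calls and do not test them. Without the fold threshold, 507 genes were higher and 915 lower at 800 nM by the same test. On the reads recovered from the table, edgeR (quasi-likelihood) gave 123 rises and 352 falls and DESeq2 gave 51 and 137, so the excess of falls was present with each tool while the number of calls was not the same. DESeq2 gave no adjusted p for 3091 of the 9963 genes, and its calls were 0.742% and 1.99% of the rest (edgeR 1.23% and 3.53% of all). At an unadjusted limma p under 0.05, 11.8% of all genes were higher and 16.0% lower, and 52.4% of all differences were below 0.

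The first step, from DMSO to 400 nM, had raised 705 genes (7.08%) and lowered 543 (5.45%). Both steps together, from DMSO to 800 nM, raised 1158 genes (11.6%) and lowered 1403 (14.1%). The rises were therefore largely in place at 400 nM, and the falls less so. Among the genes higher at 800 nM than with DMSO, a median of 69.7% of the log2 change was present at 400 nM, with quartiles of 50.1% and 89.2%. Among the genes lower at 800 nM than with DMSO the median was 54.5%, with quartiles of 36.9% and 70.7%.

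The curve of each gene was tested as the second step minus the first step, a log2 quantity that is 0 when both steps are alike. Over all genes it was negative in 541 (5.43%) and positive in 175 (1.76%) at a Benjamini-Hochberg adjusted limma p under 0.05. Of the 1158 genes raised at 800 nM, the second step was smaller than the first in 219 (18.9%) and larger in 3. Of the 1403 genes lowered at 800 nM, the second step was smaller in 53 (3.8%) and larger in 32 (2.3%). These counts depend on single 400 nM libraries. Leaving out 400 nM replicate 1, 2 or 3 brought the 716 genes with unlike steps to 446, 390 or 476, and without 400 nM replicate 2 the raised genes with a smaller second step numbered 134 in place of 219.

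**Figure D1:**
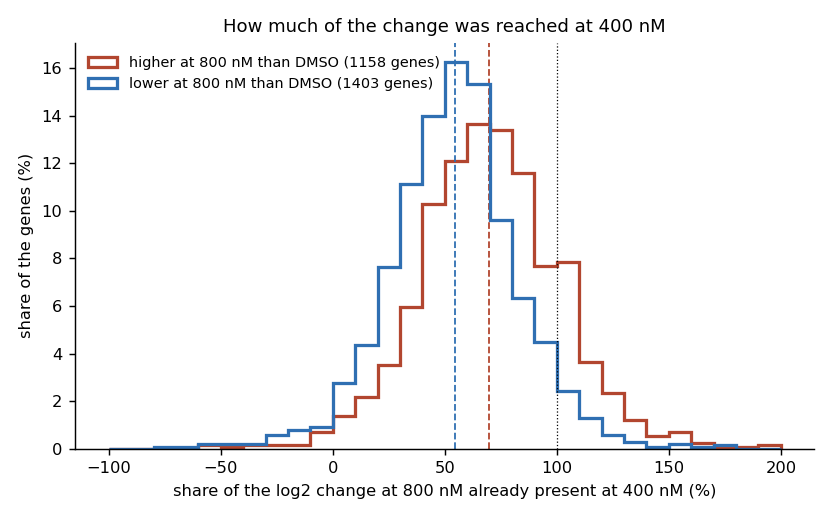
Share of the genes (y axis, %) by the share of their log2 change at 800 nM that was present at 400 nM (x axis, %), for 1158 genes higher and 1403 genes lower at 800 nM than with DMSO. Dashed lines mark the medians of 69.7% for the rises and 54.5% for the falls, and the dotted line marks a change complete at 400 nM. Values beyond the ends of the axis are drawn in the end bins.

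The genes were then described by class. A response grew when both steps passed the thresholds in the same direction, began above 400 nM when the second step alone passed, and reversed when the steps passed in opposite directions. It levelled off when the first step passed, the second did not, and the 95% interval of the second step lay within 1.5-fold either way. The classes have no test of their own, since both steps use the 400 nM libraries and noise in these makes opposite steps. By this rule 15 rises and 92 falls grew, and 93 rises and 286 falls began above 400 nM. Reversal was found for 16 genes that rose and then fell and for 5 that fell and then rose. The response levelled off for 351 rises and 139 falls, and the second step was too imprecise to place 323 rises and 307 falls. Without 400 nM replicate 1, the 107 growing responses became 70.

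**Figure D2:**
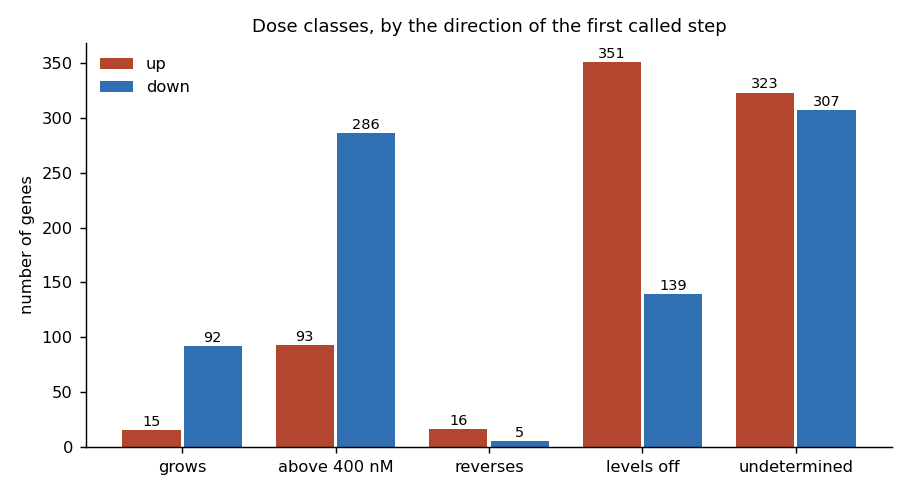
Number of genes (y axis) in each dose class (x axis), in red for genes whose first step past the thresholds was a rise and in blue for a fall. Among genes that grew, 92 were falls and 15 rises, and among those that levelled off, 351 were rises and 139 falls.

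The base composition of the genes moved with the second step. The median GC content of exon bases was 42.5% in the 113 genes that rose, 58.5% in the 394 that fell and 48.7% in the genes not called. Of the 1993 genes with the highest GC content (58.8% to 74.5%) 2 rose and 186 fell, while of the 1993 with the lowest (32.1% to 41.3%) 45 rose and 22 fell. Across the 9963 genes, which share the same 6 C16 libraries, the correlation of GC content with the 800 against 400 nM log2 difference was -0.32, compared with -0.02 for 400 nM against DMSO. The mean log2 deviation of GC-rich genes minus that of GC-poor genes was -0.177, -0.212 and -0.22 in the 800 nM libraries, 0.104, 0.154 and 0.022 in the 400 nM libraries and 0.089, 0.055 and 0.184 in the DMSO libraries. After a trend on GC content and exon length was removed from each library, a setting chosen after the data were seen, 102 genes rose (1.02%) and 265 fell (2.66%), of which 56 and 233 were among those called before. A composition effect of the library preparation and an effect of dose on GC-rich genes cannot be told apart in these groups, and values after removal are given beside the gene lists whose calls they change.

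**Figure D3:**
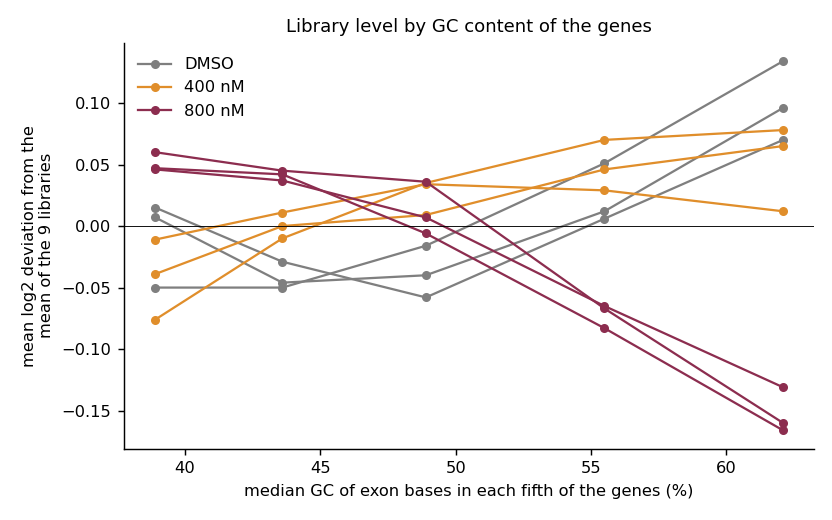
Mean log2 deviation of each of the 9 libraries from the mean over libraries (y axis) in 5 equal groups of genes ordered by exon GC content (x axis, median % of each group). Lines join the values of 1 library, and the 3 libraries at 800 nM are the lowest of all 9 in the 2 groups richest in GC.

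Genes that rose most from 400 to 800 nM mostly had a first step that did not pass the thresholds. The exceptions among the 10 largest rises were POLR3G and CD24, with first steps of 0.73 and -0.71. The first steps of GGCT and PRKAA2, 0.37 and 0.51, were under 1.5-fold but had limma adjusted p values of 0.0232 and 0.0175. BAG1, a co-chaperone that exchanges the nucleotide of HSP70 (chromosome 9, 33252471 to 33264761, minus strand, hg38), measured 53.2, 43.8 and 53.2 normalized counts at 400 nM and 91.8, 91.4 and 103 at 800 nM, against 63.1, 61.0 and 62.4 with DMSO. Every 800 nM library was above every DMSO library, and the 400 nM libraries were below them. The BAG1 log2 difference was 0.92 (SE 0.14, limma with Benjamini-Hochberg, adjusted p = 3.45e-06), and its second step differed from its first (log2 1.23, limma adjusted p = 0.000443). ZMAT3, a p53-induced RNA-binding protein (chromosome 3, 179017225 to 179071868, minus strand), stood at 39.4, 41.5 and 40.4 with 400 nM and at 72.6, 71.9 and 76.3 with 800 nM, with 35.0, 47.6 and 40.4 in DMSO. For ZMAT3 the 400 nM libraries lay inside the DMSO range and the 800 nM libraries above it, and the log2 difference was 0.85 (SE 0.17, limma with Benjamini-Hochberg, adjusted p = 0.000185).

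GGCT, an enzyme of glutathione breakdown, went from 69.6 ± 9.64 with DMSO to 90.8 ± 14.5 and 156 ± 6.62 normalized counts (SD, n = 3 each), a log2 difference between the doses of 0.78. PRKAA2, the alpha 2 catalytic subunit of the energy sensor AMPK, measured 62.8, 61.1 and 47.9 at 400 nM and 111, 69.5 and 114 at 800 nM (log2 difference 0.74). Its second 800 nM library was close to the 400 nM values, and the groups did not overlap, which the choice of these genes required. LYAR, a nucleolar protein, CISD1, an iron-sulfur protein of the outer mitochondrial membrane, NUDCD2 and NOL10, a nucleolar protein of ribosome assembly, rose by log2 values of 0.73, 0.72, 0.75 and 0.71 between the doses. Over these 4 genes and GGCT and PRKAA2 the highest limma adjusted p was that of PRKAA2 (0.00112). The calls are not equally firm. LYAR was under 1.5-fold without 400 nM replicate 1 (log2 0.50), NOL10 without 800 nM replicate 2 (0.57) and CISD1 after the GC and length trend was removed (0.51).

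The 10 largest falls contained membrane, matrix and signalling genes, most of them lowered already at 400 nM. LXN, the carboxypeptidase inhibitor latexin (chromosome 3, 158666414 to 158672693, minus strand), measured 205, 219 and 193 normalized counts with DMSO, 59.6, 42.7 and 63.8 with 400 nM and 17.1, 25.6 and 13.4 with 800 nM. The 3 groups of LXN did not overlap, and the 800 against 400 nM log2 difference was -1.54 (SE 0.17, limma with Benjamini-Hochberg, adjusted p = 4.50e-10). RAB13, a small GTPase of tight junction traffic (chromosome 1, 153981617 to 153986377, minus strand), stood at 130, 135 and 112, then 77.6, 62.3 and 57.5, then 19.2, 29.2 and 22.9. RAB13 thus also went down in 2 separate steps, by log2 values of -0.93 and -1.44. RET, the receptor tyrosine kinase for GDNF family ligands (chromosome 10, 43077069 to 43130349, plus strand), went from 162, 149 and 187 with DMSO to 55.3, 27.7 and 46.8 and then 17.1, 21.9 and 9.54, and its second step was -1.38 (limma adjusted p = 9.42e-07).

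SREBF1, the transcription factor of fatty acid synthesis genes (chromosome 17, 17811349 to 17837011, minus strand), measured 196, 232 and 228 with DMSO, 93.6, 96.9 and 106 with 400 nM and 48.4, 37.8 and 34.4 with 800 nM. Its steps of -1.14 and -1.29 could not be told apart by the test (second minus first step -0.16, limma adjusted p = 0.760). JUP, the desmosome and adherens junction protein plakoglobin, fell in the same way from 378 ± 11.5 to 161 ± 17.7 and 75.3 ± 5.99, and VWA1, a matrix protein, from 781 ± 19.1 to 351 ± 30.6 and 153 ± 13.9 (SD, n = 3 each). MXRA5, a matrix remodelling protein, had 38.3, 26.5 and 28.7 with 400 nM and 14.1, 11.0 and 11.4 with 800 nM, a second step of -1.28.

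The remaining 3 of the 10 largest falls took place mainly above 400 nM. HSPG2, the basement membrane proteoglycan perlecan (chromosome 1, 21822232 to 21937297, minus strand), measured 299, 337 and 475 with DMSO, 310, 287 and 228 with 400 nM and 118, 110 and 126 with 800 nM. The DMSO and 400 nM groups of HSPG2 overlapped while the 800 nM libraries lay far below both, and the second step was larger than the first (second minus first step -0.79, limma adjusted p = 0.00321). Of its exon bases 11.7% overlap LDLRAD2 on the other strand, and the use of strand in counting is not given. PLCH2, a phospholipase C, had steps of -0.55 and -1.30, which differed (limma adjusted p = 0.0385). PTPRH, a receptor tyrosine phosphatase, measured 95.7, 96.9 and 100 at 400 nM, above the DMSO values of 64.1, 70.5 and 84.5, and 35.3, 47.5 and 37.2 at 800 nM, below them. The 20 genes with the largest rises and falls were taken only where the 400 and 800 nM libraries did not overlap. The exact permutation test of 800 against 400 nM could therefore give only p = 0.1, two-sided, the smallest that 3 libraries against 3 allow.

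**Figure D4:**
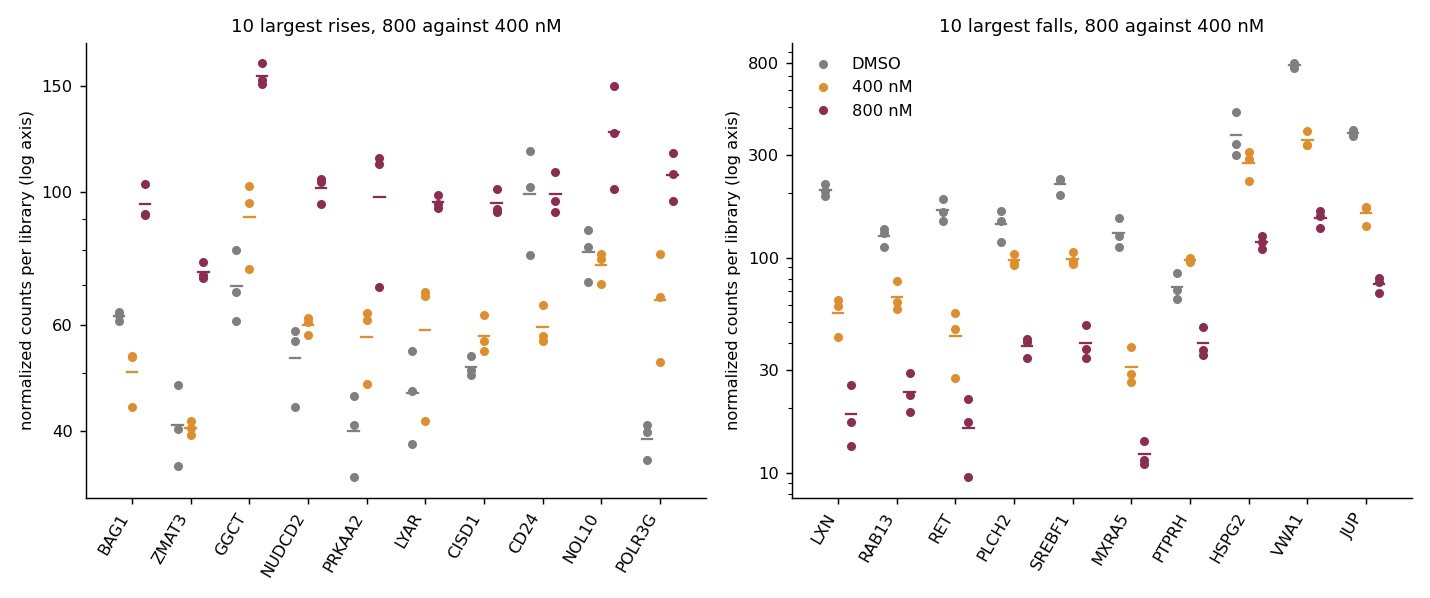
Normalized counts per library (y axes, log scale) of the 10 largest rises (left) and the 10 largest falls (right) between 400 and 800 nM. The genes were taken among those called that averaged 50 or more and whose 400 and 800 nM libraries did not overlap. Points are libraries of DMSO (grey), 400 nM (orange) and 800 nM (dark red), and bars are means. LXN, RAB13, RET, SREBF1, MXRA5, VWA1 and JUP descend at both doses, whereas HSPG2 and PTPRH are low at 800 nM only.

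Among the 15 rises that grew, the 5 genes with a mean of at least 50 and the largest smaller step were DUSP5, POLR3G, PPIF, EXO1 and FAM111B. DUSP5, the nuclear phosphatase that inactivates ERK and is itself induced by ERK, measured 19.4, 20.0 and 27.4 with DMSO, 98.9, 98.0 and 106 with 400 nM and 148, 149 and 175 with 800 nM. The DUSP5 groups were separate, and its second step of 0.63 was smaller than its first of 2.15 (second minus first step -1.52, limma adjusted p = 1.13e-05). POLR3G, a subunit of RNA polymerase III, rose by 0.73 and 0.70, PPIF, the cyclophilin of the mitochondrial matrix, by 0.73 and 0.64, EXO1, a DNA repair exonuclease, by 0.66 and 0.67, and FAM111B by 0.95 and 0.62. The difference between the doses was under 1.5-fold for POLR3G (0.50), EXO1 (0.58) and FAM111B (0.46) after the GC and length trend was removed. It was also under 1.5-fold for POLR3G (0.54) and PPIF (0.54) without 400 nM replicate 1, for PPIF (0.58) and FAM111B (0.55) without 800 nM replicate 2, for FAM111B (0.57) without 400 nM replicate 3 and for DUSP5 (0.55) without 800 nM replicate 3.

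Reversal was most complete in genes whose 800 nM level returned to that of DMSO. MYPN, a sarcomere protein, measured 82.6, 90.5 and 104 with DMSO, 202, 174 and 158 with 400 nM and 109, 99.9 and 93.5 with 800 nM. All 3 libraries at 400 nM lay above the other 6, and the steps of MYPN were 0.94 and -0.81. C15orf52 (steps 0.81 and -1.06) and HELZ2, a helicase that coactivates nuclear receptors (0.60 and -0.69), behaved likewise, although HELZ2 stood at -0.39 after the GC and length trend was removed and at -0.58 without 800 nM replicate 2, neither past the thresholds. ANGPTL4, the secreted inhibitor of lipoprotein lipase, rose from 68.0, 95.2 and 57.9 to 202, 188 and 160 and returned part of the way, to 103, 123 and 97.3, with steps of 1.33 and -0.76. CD24, a mucin-like surface protein, went the other way, with 117, 102 and 78.4, then 64.9, 56.5 and 57.5, then 108, 92.6 and 96.4. CD24 was lowered at 400 nM and at its DMSO level at 800 nM (steps -0.71 and 0.72, limma adjusted p = 1.31e-05 for their difference).

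The strongest responses to 400 nM that levelled off by this rule were rises. ARSI, a sulfatase, measured 16.5, 16.2 and 24.4 with DMSO, 118, 134 and 120 with 400 nM and 123, 138 and 125 with 800 nM. FLNC, an actin cross-linker, stood at 68.5 ± 14.8, 357 ± 36.2 and 322 ± 17.3, and CDCP1, a SRC substrate at the cell surface, at 65.4 ± 10.2, 266 ± 15.5 and 274 ± 41.5 (SD, n = 3 each). The libraries at both doses of these genes overlapped. STX3, a syntaxin of apical transport, and COL7A1, the collagen of anchoring fibrils, had first steps of 2.00 and 1.93 and second steps of 0.30 and 0.12. Among the falls, PDE5A, a cyclic GMP phosphodiesterase, had steps of -1.12 and -0.29 and ZNF217, a zinc finger repressor, of -1.01 and -0.30. Small second steps remained: the 800 nM libraries of STX3 lay above all 400 nM libraries, and those of PDE5A and ZNF217 below. The limma adjusted p of these steps was 0.0833, 0.0511 and 0.0263. BTBD2, RNF5, a membrane-bound ubiquitin ligase, and MAT2B, the regulatory subunit of methionine adenosyltransferase, had first steps of -1.04, -1.0 and -0.99 and second steps of -0.25, -0.06 and -0.23.

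Most integrated stress response targets rose at 400 nM, and a few fell from 400 to 800 nM. Of 25 tested, 17 had risen from DMSO to 400 nM and 0 had fallen (7.08% and 5.45% of all genes), with a median log2 difference of 0.85. From 400 to 800 nM, 0 rose and 5 fell by limma and by edgeR, compared with 3.95% of all genes that fell by limma. At 800 nM, 15 were above DMSO and 4 below it (11.6% and 14.1% of all genes). DESeq2 called 2 falls and gave no adjusted p for 4 of the genes. At an unadjusted limma p under 0.05, 0 genes were higher and 13 lower (11.8% and 16.0% of all genes), and 22 of the differences were below 0 (52.4% of all). The median was -0.26, compared with -0.02 for all genes tested. After the GC and length trend was removed 4 fell and the median was -0.18. The second step minus the first was negative in 20 of the 25 by the limma test, compared with 5.43% of all genes, and in 20 after the trend was removed. This quantity subtracts the first step, so genes raised at 400 nM lean to negative values. Among all genes raised at 400 nM, the steps differed in 204 of 351 that levelled off and 88 of 323 not placed. They also differed in 1 of 15 that grew and 16 of 16 that reversed. ATF4, the central factor of the program, measured 247, 266 and 236 with DMSO, 413, 404 and 397 with 400 nM and 273, 306 and 258 with 800 nM. All 400 nM libraries of ATF4 lay above the other 6, its steps were 0.70 and -0.54 (SE 0.08 for the second, limma with Benjamini-Hochberg, adjusted p = 2.61e-06), and the second was under the 1.5-fold threshold. CHAC1, which degrades glutathione, reversed, with 22.4, 22.9 and 20.6, then 55.3, 61.1 and 51.1, then 33.3, 36.6 and 32.4, and so did ALDH1L2, a folate enzyme of mitochondria (means of 8.70, 26.1 and 9.88). CHAC1 lost its call with DESeq2 (log2 -0.70, adjusted p = 0.0647), without 400 nM replicate 2 (-0.63, limma adjusted p = 0.0593) and after the GC and length trend was removed (-0.57).

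The other targets that fell did so without a rise that passed the thresholds at 400 nM. DDIT4, an inhibitor of mTORC1, measured 279, 219 and 248 at 400 nM and 117, 149 and 102 at 800 nM (log2 difference -1.02, limma adjusted p = 3.33e-11). With DMSO it measured 262, 280 and 249, above every 800 nM library. PCK2, the mitochondrial form of the gluconeogenic enzyme PEPCK, had 64.9, 61.1 and 70.2 at 400 nM and 18.2, 35.3 and 43.9 at 800 nM, below every 400 nM library (log2 difference -1.07). NUPR1, a small stress-induced chromatin protein, was measured at 26.6, 18.4 and 16.0 and at 8.07, 13.4 and 5.72 (log2 difference -1.12), and without 400 nM replicate 1 its call was lost (-0.92, limma adjusted p = 0.0543). Other targets stayed up. ATF3, a transcription factor, had 17.5, 15.2 and 14.5 with DMSO, 65.9, 61.1 and 63.8 with 400 nM and 59.5, 64.6 and 60.1 with 800 nM. DDIT3, the factor CHOP, TRIB3, a pseudokinase that binds AKT, SESN2, a leucine sensor, SLC7A11, the cystine transporter, and STC2, a secreted glycoprotein, levelled off with first steps of 1.05, 1.23, 1.32, 1.54 and 1.52 and second steps of -0.26, -0.13, -0.27, -0.26 and -0.11. SHMT2, a serine and glycine enzyme of mitochondria, had steps of 1.19 and 0.19, and SLC7A5 and SLC3A2, the chains of the large neutral amino acid transporter, had second steps of -0.35 and -0.27 after first steps of 0.83 and 1.06. All 800 nM libraries of SLC7A5 lay below the 400 nM libraries (limma adjusted p = 0.000236). At 800 nM SLC7A5 was above DMSO by a log2 value of 0.47, which is under 1.5-fold.

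The promoters of this list were searched for the C/EBP-ATF response element, the site that ATF4 binds together with C/EBP proteins, spelled TGATGNAA on either strand and chosen after the values were seen. Of 19 promoters matched by symbol in RefSeq (GRCh38.p14, from 250 bases before to 50 after the start), 5 held these letters (26.3%), compared with 124 of 8245 promoters of genes tested (1.5%) and 1003 of 27305 RefSeq promoters (3.7%). The list is made of known ATF4 targets, so this share is a description of it. Windows of 30 bases from the 3 with a match upstream of the start are shown 5′ to 3′ on the strand of the gene with the matched letters in capitals, because these genes took different courses. ATF3 levelled off, CHAC1 reversed, and ASNS, asparagine synthetase, had steps of 0.46 and -0.24.
ATF3, chr1:212565205-212565234, plus strand: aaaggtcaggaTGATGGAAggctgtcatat
ASNS, chr7:97872458-97872487, minus strand: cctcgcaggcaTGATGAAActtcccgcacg
CHAC1, chr15:40953251-40953280, plus strand: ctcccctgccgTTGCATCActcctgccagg
In CHAC1 the letters are those of the opposite strand. The matches begin at -191, -68 and -209 from the RefSeq start. The other 2 matches, in SLC3A2 and SLC7A1, lie past the start.

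Cytosolic aminoacyl-tRNA synthetases, which load tRNAs with amino acids and many of which ATF4 induces, gave no calls between the doses. Of 19 tested, 5 had risen and 1 had fallen at 400 nM (7.08% and 5.45% of all genes), with a median of 0.29. From 400 to 800 nM 0 rose and 0 fell (median -0.07), with 0 calls by edgeR and DESeq2. At an unadjusted limma p under 0.05, 3 genes were higher and 5 lower (11.8% and 16.0% of all genes). The second step minus the first was negative in 8 by the limma test (5.43% of all genes). Genes raised at 400 nM lean to negative values of this quantity. GARS stood at 494, 905 and 876 normalized counts with DMSO, 400 nM and 800 nM, YARS at 231, 395 and 361, and AARS at 289, 346 and 267. The 800 against 400 nM difference of AARS was -0.37 (limma adjusted p = 0.00106), the most negative of the list and under 1.5-fold.

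EIF2AK2 measured 45.7, 39.2 and 42.6 normalized counts with 400 nM, 51.4, 48.7 and 49.6 with 800 nM and 45.7, 49.5 and 54.1 with DMSO (chromosome 2, 37105141 to 37157047, minus strand). The 800 nM libraries of EIF2AK2 lay above the 400 nM libraries (exact permutation test, two-sided, p = 0.1), but the log2 difference of 0.23 did not pass (95% interval -0.11 to 0.57, limma adjusted p = 0.388). Of 11 eIF2 alpha kinases, phosphatase subunits and PKR cofactors, 0 rose and 0 fell between the doses by limma, and edgeR called 1 and DESeq2 called 0. At an unadjusted limma p under 0.05, 3 were higher and 0 lower (11.8% and 16.0% of all genes). PRKRA, the protein activator of PKR, had means of 52.9 and 79.2 and a log2 difference of 0.58 (limma adjusted p = 0.00787), just under 1.5-fold. EIF2AK3, the kinase PERK, had means of 20.9 and 33.3 and a log2 difference of 0.69 (limma adjusted p = 0.0541). PPP1R15A and PPP1R15B, the subunits that direct the phosphatase of eIF2 alpha, had risen at 400 nM (means of 28.4 and 66.7 for PPP1R15A and of 69.9 and 136 for PPP1R15B) and had second steps of -0.28 and -0.04.

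**Figure D5:**
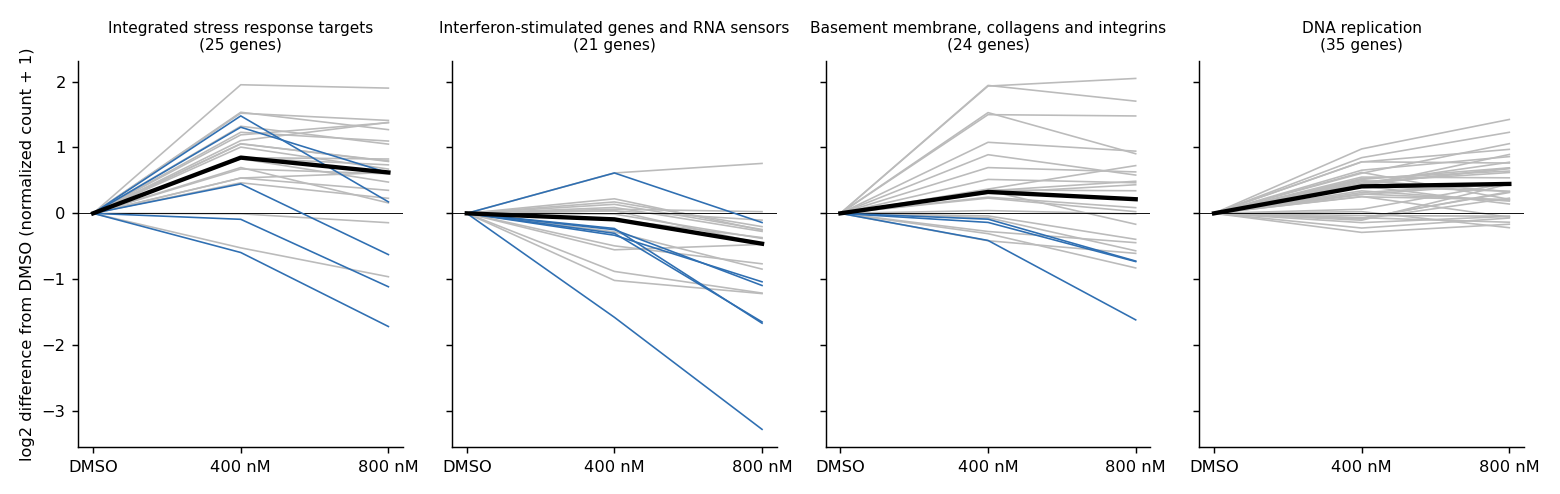
Log2 difference from DMSO of log2 (normalized count + 1) (y axis) at each dose (x axis) for the members of 4 gene lists. Thin lines are genes, in blue where the gene fell from 400 to 800 nM and grey where that step did not pass the thresholds, and black lines are medians. The stress response median is 0.85 at 400 nM and 0.62 at 800 nM, the interferon median -0.09 and -0.46, the basement membrane median 0.32 and 0.21, and the DNA replication median 0.41 and 0.45.

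Of the interferon-stimulated genes and RNA sensors, 6 fell from 400 to 800 nM. Of 21 tested, 2 had risen and 2 had fallen at 400 nM (7.08% and 5.45% of all genes). From 400 to 800 nM 0 rose and 6 fell by limma and by edgeR, compared with 3.95% of all genes that fell by limma. A difference below 0 was seen in 19 (52.4% of all). DESeq2 gave no adjusted p for 12 of the 21 and called 1 fall among the others. At an unadjusted limma p under 0.05, 0 were higher and 9 lower (11.8% and 16.0% of all genes). The median second step was -0.37, and -0.35 with 6 falls after the GC and length trend was removed. IFIT2, an antiviral RNA-binding protein, measured 52.5, 33.3 and 45.7 with DMSO, 39.4, 29.98 and 41.5 with 400 nM and 12.1, 18.3 and 9.54 with 800 nM (log2 difference between the doses -1.44, limma with Benjamini-Hochberg, adjusted p = 7.07e-06). Its DMSO and 400 nM libraries overlapped and the 800 nM libraries lay below both. IFIT3 behaved likewise, with 24.5, 21.9 and 24.5 at 400 nM and 4.04, 14.6 and 10.5 at 800 nM (log2 difference -1.35).

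MAVS, the mitochondrial adaptor of the RNA sensors RIG-I and MDA5, measured 147, 126 and 122 with 400 nM and 89.8, 67.0 and 84.9 with 800 nM, and its difference of -0.71 was under 1.5-fold after the GC and length trend was removed (-0.53) and without 800 nM replicate 2 (-0.58). IFI35 fell by 0.85 on the log2 scale, and without 400 nM replicate 1 it did not pass (-0.69, limma adjusted p = 0.0670). OASL, an OAS-like protein that aids RIG-I, was near the limit of detection at 800 nM, with 0, 4.87 and 0.954 normalized counts after 8.51, 6.92 and 4.26 at 400 nM, and these libraries overlapped. STAT2, a subunit of the interferon-activated factor ISGF3, reversed, with means of 29.5, 45.8 and 26.9. The calls of OASL and STAT2 were lost without 400 nM replicate 1 (-1.52 and -0.66) or 800 nM replicate 1 (-1.12 and -0.63), that of OASL also in the fit of the 2 groups alone and that of STAT2 also with DESeq2. ADAR, an RNA-editing enzyme, and DDX58, the sensor RIG-I, had second steps of -0.14 and 0.08, neither past the thresholds.

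Of 18 G1 cyclins, kinases and E2F genes, 7 had risen at 400 nM (7.08% of all genes). From 400 to 800 nM 2 rose (1.13% of all genes), with a median second step of 0.23. RBL2, a pocket protein that represses E2F genes, was the 1 member lowered at 800 nM against DMSO (means of 56.2, 38.9 and 31.7). CCNE1, cyclin E1, measured 22.4, 24.8 and 34.3 with DMSO, 40.4, 43.8 and 45.8 with 400 nM and 56.5, 71.9 and 76.3 with 800 nM (log2 difference between the doses 0.63, limma adjusted p = 0.0132). CDC25A, the phosphatase that activates CDK2, measured 10.7, 12.4 and 15.2, then 34.0, 40.4 and 35.1, then 68.6, 52.4 and 61.1 (log2 difference 0.71, limma adjusted p = 0.0148). The groups of both genes were separate. Both calls were lost without 400 nM replicate 1 (0.59 and 0.67) or 800 nM replicate 3 (0.55 and 0.70), that of CCNE1 also without 800 nM replicate 2 (0.59) and with DESeq2, and that of CDC25A also without 800 nM replicate 1 (0.62). CCND3, cyclin D3, and CDK2 had risen at 400 nM by 1.18 and 0.86 and levelled off with second steps of 0.23 and -0.04.

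DNA replication genes gave no calls between the doses. Of 35 tested, 0 rose and 0 fell (median 0.14). Against DMSO, 6 had risen at 400 nM and 13 were raised at 800 nM (7.08% and 11.6% of all genes). Between the doses, 9 were higher and 2 lower at an unadjusted limma p under 0.05 (11.8% and 16.0% of all genes), and edgeR and DESeq2 called 0. CDC6, which loads the MCM helicase, had means of 77.6, 152 and 207 and a second step of 0.45 (limma adjusted p = 0.00615), and RRM1, a subunit of ribonucleotide reductase, had means of 250, 344 and 428. Of 36 mitosis genes 0 rose and 0 fell between the doses with all 3 tools, 1 was higher and 6 lower at an unadjusted limma p under 0.05, and the median was -0.02.

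The cell cycle inhibitors GADD45A and CDKN1A did not pass the test between the doses. GADD45A, a growth arrest protein, measured 129, 134 and 136 with 400 nM and 134, 150 and 146 with 800 nM, after 84.5, 99.0 and 83.0 with DMSO (chromosome 1, 67685177 to 67688338, plus strand). The libraries at both doses of GADD45A overlapped, and the log2 difference was 0.11 (exact permutation test, two-sided, p = 0.2, limma adjusted p = 0.582). CDKN1A, the CDK inhibitor p21, measured 90.4, 104 and 115 with 400 nM and 93.8, 91.4 and 81.1 with 800 nM, also overlapping (log2 difference -0.21, exact permutation test, two-sided, p = 0.3, limma adjusted p = 0.349). With DMSO CDKN1A measured 48.6, 79.0 and 73.1. It levelled off after a first step of 0.64, and at 800 nM it was 0.43 above DMSO on the log2 scale, under 1.5-fold. Its steps differed (second minus first step -0.85, limma adjusted p = 0.0225). Of 18 p53 target and growth arrest genes, ZMAT3 rose and TP53INP1, a stress-induced autophagy factor, fell (means of 16.0 and 7.00), with a median of -0.19.

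Lists of sterol and fatty acid genes held 1 fall each between the doses. Of 24 genes of cholesterol synthesis and uptake, 18 had a second step above 0 and the median was 0.22, but 0 rose with limma, edgeR or DESeq2, and 9 were higher and 4 lower at an unadjusted limma p under 0.05 (11.8% and 16.0% of all genes). SC5D, a sterol desaturase, had means of 122, 149 and 204 (second step 0.45). TM7SF2, a sterol reductase, was the 1 member that fell, with 104, 106 and 87.6, then 18.1, 18.4 and 20.2, then 12.1, 9.75 and 9.54 (second step -0.80), and it did not pass with edgeR (adjusted p = 0.0619), DESeq2 (adjusted p = 0.153) or limma on the 2 groups alone (adjusted p = 0.0692). Of 14 fatty acid synthesis genes, SREBF1 alone fell between the doses (median -0.11), and FASN, fatty acid synthase, had means of 1478 ± 184, 1070 ± 56.1 and 900 ± 80.1 (SD, n = 3 each) with a second step of -0.25.

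Junction, basement membrane and actin lists, which are rich in GC, held 3, 3 and 2 falls between the doses and 3, 1 and 0 after the GC and length trend was removed. Of all genes, 3.95% fell before and 2.66% after that removal. Of 17 epithelial junction and keratin genes, JUP, CLDN4 and CLDN7, claudins of tight junctions, fell and 0 rose. CLDN4 was under 1.5-fold without 800 nM replicate 1 (log2 -0.57). CLDN7 measured 42.5, 35.8 and 37.2 with 400 nM and 16.1, 12.2 and 18.1 with 800 nM, after 35.0, 31.4 and 32.0 with DMSO. The 400 nM libraries of CLDN7 were above DMSO and the 800 nM libraries below it, and the second step was -1.27 (limma adjusted p = 2.81e-05). KRT19, a keratin of ductal cells, had 818, 905 and 801 with 400 nM and 520, 612 and 555 with 800 nM, a difference of -0.58 that was just under 1.5-fold.

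Of 24 basement membrane, collagen and integrin genes (median exon GC 59.1%), 7 had risen at 400 nM (7.08% of all genes). HSPG2 and the laminin chains LAMA5 and LAMB2 fell between the doses. LAMA5 measured 671, 683 and 581 with 400 nM and 410, 439 and 392 with 800 nM. The differences of LAMA5 and LAMB2, -0.64 and -0.59, became -0.32 and -0.37 after the GC and length trend was removed, which left HSPG2 as the 1 fall of the list. LAMB2 was also under 1.5-fold with DESeq2 (-0.58), median-of-ratios scaling (-0.57) and a pseudocount of 5 (-0.58), and without 400 nM replicate 1 (-0.55) or 800 nM replicate 2 (-0.58) or 3 (-0.52). Of 29 actin cytoskeleton and focal adhesion genes (median exon GC 58.1%), 25 had a difference below 0 (52.4% of all genes; median -0.22), and ACTG1, gamma actin, and TNS3, tensin 3, fell by 0.59 and 0.75 on the log2 scale. After the GC and length trend was removed these values were -0.49 and -0.56, and 0 genes of the list passed. ACTG1 was also under 1.5-fold with DESeq2 (-0.57) and median-of-ratios scaling (-0.56) and without 400 nM replicate 2 (-0.55) or 800 nM replicate 1 (-0.55). VCL, vinculin, had means of 1069, 1205 and 855.6 and a second step of -0.49, under 1.5-fold (limma adjusted p = 2.01e-08).

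Signalling targets that fell with dose included ID1, a BMP-induced inhibitor of helix-loop-helix factors, with 130, 140 and 127, then 90.4, 88.8 and 76.6, then 47.4, 43.9 and 41.0. Its groups were separate and its second step was -0.93 (limma adjusted p = 4.66e-07). SMAD6, an inhibitory SMAD, and COL1A1, a chain of collagen I, fell by 0.91 and 0.88, which made 3 falls among 16 TGF-beta and BMP genes, beside 3.95% of all genes. In this list edgeR called 3 falls and DESeq2 called 2. Among 12 NF-kB targets, NFKBIA, the inhibitor of NF-kB, and CSF1, the macrophage growth factor, fell by 0.77 and 0.79, and NFKBIA did not pass with DESeq2 (adjusted p = 0.117). L1CAM, a neuronal adhesion protein, measured 651, 564 and 599 with 400 nM and 296, 340 and 326 with 800 nM (second step -0.91), and SPARC, a matrix protein, measured 41.5, 40.4 and 38.3 and then 21.2, 28.0 and 21.0 (-0.76). ABCC3, an organic anion exporter, had means of 146, 57.5 and 28.5, with separate groups at each step.

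Lysosome and autophagy genes gave 3 falls among 30, PSAP and ULK1 among them, beside 3.95% of all genes that fell. PSAP, the precursor of the saposins, measured 3216, 2864 and 2984 with 400 nM and 1981, 2128 and 1899 with 800 nM, a log2 difference of -0.59. Its call ended, with the difference under 1.5-fold, after the GC and length trend was removed (-0.52), with DESeq2 (-0.58) and median-of-ratios scaling (-0.57), and without 400 nM replicate 1 (-0.55) or 800 nM replicate 3 (-0.56), which left 2 falls in the list. ULK1, the kinase that starts autophagy, went from 128 ± 13.4 with DMSO to 173 ± 19.5 with 400 nM, under 1.5-fold, and was at 94.9 ± 2.03 with 800 nM (SD, n = 3 each), a second step of -0.86.

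Large housekeeping groups gave no calls between the doses with limma. Of 79 cytosolic ribosomal protein genes, 42 nuclear genes of the respiratory chain and 31 proteasome genes, 0 rose and 0 fell, with medians of -0.02, 0.08 and 0.09. At an unadjusted limma p under 0.05, 7, 8 and 5 of them were higher and 12, 1 and 1 lower, beside 11.8% and 16.0% of all genes, edgeR called 0, and DESeq2 called 1 proteasome gene up. Of 19 cytosolic heat shock chaperones CHORDC1, an HSP90 co-chaperone, alone rose, from means of 138 to 207, and its difference of 0.59 was under 1.5-fold after the GC and length trend was removed (0.42), with a pseudocount of 5 (0.58) and without 400 nM replicate 1 (0.46) or 800 nM replicate 1 (0.57). ER chaperones, glycolysis and hypoxia targets, YAP and TEAD targets, EGFR family genes and xenobiotic metabolism genes had 0 rises and 0 falls with limma, edgeR and DESeq2, among 23, 25, 18, 5 and 6 tested. In the same order, 5, 3, 1, 0 and 0 of them were higher and 2, 6, 6, 4 and 2 lower at an unadjusted limma p under 0.05. After the GC and length trend was removed, 1 YAP and TEAD target rose, WWC1, an upstream protein of the pathway (log2 0.48 before and 0.59 after).

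The other lists held few calls between the doses, where 1.13% of all genes rose and 3.95% fell. DUSP5 was the 1 rise among 18 ERK feedback and output genes, ABCC3 the 1 fall among 21 NRF2 targets and iron genes and among 9 drug efflux transporters, and SPARC the 1 fall among 10 EMT and mesenchymal genes. RET and L1CAM were the 2 falls among 9 axon and neuroendocrine genes. PSMB9, an immunoproteasome subunit, was the 1 fall among 15 MHC class I genes, with overlapping libraries of 27.6, 18.4 and 13.8 at 400 nM and 8.07, 19.5 and 2.86 at 800 nM. MUC1, a membrane mucin, was the 1 fall among 10 pancreatic cancer drivers and lineage factors, and it reversed, with 15.6, 15.2 and 30.5, then 30.8, 32.3 and 40.4, then 21.2, 23.1 and 13.4. Without 800 nM replicate 3 neither PSMB9 (-0.57) nor MUC1 (-0.61) passed, nor did PSMB9 without 400 nM replicate 1 (-0.92) or MUC1 without 400 nM replicate 3 (-0.72). After the GC and length trend was removed AGR2, a secreted disulfide isomerase, fell too, beside MUC1 (-0.58 before and -0.71 after).

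Promoters of the genes that changed were described by the motifs they hold, with no test. Among 93 matched promoters of genes that rose, 314 of genes that fell and 8245 of all genes tested, the AP-1 letters TGANTCA were present in 2.2%, 1.9% and 3.9%. The cyclic AMP response element TGACGTCA was present in 6.5%, 2.2% and 3.5%, the CCAAT box in 35.5%, 38.2% and 37.4%, and the E-box CACGTG in 8.6%, 7.0% and 10.9%. The cell cycle motif TTTGAA was present in 8.6%, 5.4% and 9.1%, the heat shock letters GAANNTTC in 4.3%, 2.9% and 4.2%, and the antioxidant letters TGANNNNGC in 47.3%, 41.1% and 43.5%. Both strands were searched and overlapping matches counted once per promoter.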

How the data were processed

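RNA of PANC-1 cells was sequenced after 72 h with DMSO or C16. Per the labels and methods, the authors aligned reads to hg38 using TopHat, assigned them to genes using featureCounts, and applied the TMM method of TCC. The annotation and the use of strand are not given in the sources used here. The deposited table holds a normalized signal for each gene, reads divided by a factor per library, and 0 columns could not be assigned. Every value (100.0%) was a whole multiple of the worth of 1 read within 0.001, so reads were recovered. Replicates differed by more than sampling noise and none were merged. The siRNA table of the series was not used here.

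The test was limma 3.58.1 on log2 (normalized count + 1) (R 4.3.3, trend, two-sided, Benjamini-Hochberg over 9963 genes), with all 9 libraries in the fit. Recovered reads were tested with edgeR 4.0.16 and DESeq2 1.42.0. A fold change on this scale understates that of low genes. Named genes are the 10 largest rises and falls with a mean of at least 50 and separate libraries, up to 5 genes of each dose class, EIF2AK2, GADD45A, CDKN1A and up to 5 members of each of 32 gene lists; list members with a mean under 50 and those named only to show a course were chosen after their values were seen. The lists, written from general knowledge, and the tests were chosen with earlier results of these data known. Gene positions are those of the deposited table, and exon GC content was computed from the hg38 sequence. On simulated reads for 800 against 400 nM with 200 changed genes among 9963, limma recovered 192 (96%) with 6 false calls. Recovery by size of change, level of the gene or GC content was not tested, and the 96% is not a rate for the genes called here. Alternatives were other pseudocounts, filters and scaling, a fit of the 2 groups alone, a replicate block, both count tools, each library left out, and removal of a GC and length trend. The values of a few list and marker genes are not reported here.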

Additional observations from a re-analysis of the deposited data

How the results depend on the processing

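For 800 against 400 nM, 0 of the genes called changed direction under any alternative. Calls were lost more often: of 63 called genes examined singly, 28 lost the call under at least 1 alternative, 22 of them with 1 library left out (13 without 400 nM replicate 1, 2 to 7 without another C16 library). Removal of the GC and length trend ended 13 of these calls, DESeq2 8 (genes with no adjusted p not counted), median-of-ratios scaling 3, a pseudocount of 5 and the fit of the 2 groups alone 2 each, and edgeR 1. DESeq2 gave 51 rises and 137 falls, 53 genes that grew, 129 that began above 400 nM, 6 that reversed, 305 that levelled off and 277 with unlike steps; the smaller second steps were 118 of the rises and 14 of the falls, the larger ones 1 and 6, and the falls had reached a median of 55.98%. A mean of at least 30, which tests fewer genes, gave 231 falls, 296 falls at 400 nM and 800 at 800 nM against DMSO, 227 genes above 400 nM, 11 reversals and a median of 67.20% for the rises. Median-of-ratios scaling gave medians of 67.62% and 56.33%. A pseudocount of 5 gave 1 rise with a larger second step and 55.86% for the falls. Removal of the GC and length trend gave 1 and 12 larger second steps and 58.23% for the falls.

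With 1 library left out, the ranges were 84 to 141 rises and 298 to 388 falls (800 against 400 nM), 390 to 814 genes with unlike steps, 70 to 102 that grew, 134 to 239 rises and 25 to 53 falls with a smaller second step, and 1 to 3 rises and 15 to 32 falls with a larger one. The medians reached were 66.09% to 71.49% for rises and 52.78% to 55.36% for falls. For falls with a larger second step, leaving out 400 nM replicate 1, 2 or 3 gave 15, 18 and 20 and DMSO replicate 2 gave 21; for falls with a smaller one, 400 nM replicates 2 and 3 gave 25 and 33. The 3 rises with a larger second step became 1 without 400 nM replicate 1, 800 nM replicate 2 or DMSO replicate 3.

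The replicate block gave 115 rises and 391 falls, 113 and 390 of them shared; same-numbered libraries correlated at -0.049 to 0.017, so the numbers do not pair them, and blocked fits changed no call of a named gene. The depth of 894145 to 1474308 reads per library limits the genes with a mean under 50.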
